A study of Bos taurus with 12 samples.

Results

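The genes described here encode the basement membrane, the integrins that bind it, and a few proteins that work with them. They were chosen by symbol from the gene count table of expanded bovine blastocysts. The rule took every laminin chain, every collagen IV chain, every integrin alpha chain with a number or V, every integrin beta chain with a number, and NID1, NID2, HSPG2, AGRN, COL18A1, SPARC, FN1 and DAG1. It found 45 of the 32637 genes in the table, of which 25 had enough counts to be tested. The embryos were produced in vitro and collected as expanded blastocysts on Day 7 or Day 8, and the groups were defined by sex. The labels do not say how collection day, collection week or bull were split between the sexes. Each blastocyst was cut evenly, 1 piece was sexed by PCR, and the other went to RNA-seq, carrying inner cell mass as well as trophectoderm. A library is a pool of 2 such pieces of the same sex, with 6 female and 5 male libraries, so a value is a mean over cells of both lineages and over a pair of embryos. The labels do not say whether pools came from separate fertilizations, so the p-values measure the spread between these pools.

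Basement membranes are thin sheets of matrix under epithelia. Laminin trimers of an alpha, a beta and a gamma chain form one network on the cell surface, collagen IV trimers form another, and nidogens and perlecan tie the networks together. Integrins, which are pairs of an alpha and a beta chain, and dystroglycan hold the sheet to the cell and to its cytoskeleton. In the blastocyst, hypoblast and trophectoderm cells rest on such sheets, and integrins on the trophectoderm take part in its later attachment to the uterus.

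The libraries held 6664112 to 16162985 counted reads in females and 9942952 to 21392764 in males. Levels are in CPM, each count being divided by the library's total after TMM factors had adjusted that total for composition. They are relative levels, so a higher level of one gene can lower that of others where the factors do not fully adjust for it. They are not divided by transcript length, so levels of different genes are not compared. Markers of both blastocyst lineages were present, while FOXA2, a hypoblast marker, was at most 0.633 CPM. Of the 7 markers of the cumulus cells around the oocyte, FOXL2, AMH and INHA were at most 0.304 CPM, HAS2, TNFAIP6 and CYP19A1 reached 6.43, 4.75 and 3.50 CPM, and FSHR was at 4.57 to 27.3 CPM in every library. No marker on the inner cell mass, trophectoderm, hypoblast or cumulus lists passed the test between the sexes. Male replicate 5 stood apart, with a mean correlation of 0.871 with the other libraries over the tested genes, against 0.930 to 0.942 for the rest. Its 10 trophectoderm markers summed to 36074 CPM, against 7864 to 23110 in females and 9177 to 20213 in the other males, with 20103 CPM from KRT8 alone. Of these markers 4, KRT8, KRT18, CDX2 and DAB2, were higher there than in every other library, as were 24.9% of all tested genes. The other 6 lay inside the range of the others. Of the 6 tested inner cell mass markers, POU5F1 and LIN28A were highest there, KLF17 and SPIC lowest, and the other 2 inside the range. Of the 4 tested hypoblast markers, PDGFRA was at 17.8 CPM there and at 52.0 or more in the other 10 libraries, while GATA4, GATA6 and HNF4A, at 1.60, 149 and 31.3 CPM, lay inside their range. Results are therefore also given without this library, and its part in them was not tested beyond that. In pooled embryo pieces, fewer cells of a type and less RNA per cell cannot be told apart.

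The first question was whether female and male blastocysts differ in their basement membrane and integrin genes. Of the 25 tested genes, 0 passed in either direction by the quasi-likelihood test of edgeR with the library number in the model, at an adjusted p under 0.1 and a fold change over 1.5. Over all 12802 tested genes, 0.414% were called higher in males and 1.5% higher in females, so calls were rare throughout. DESeq2 with the same covariate also called 0 of the 25, with no share over all genes at hand. DESeq2 without it called 1, COL4A5, as higher in females, where 3.28% of the genes it tested were called in that direction. At an unadjusted p under 0.05 edgeR gave 1 of the 25, again COL4A5, against 13.2% of all genes. The log2 fold changes, male over female, ran from -2.20 for COL4A5 to 1.18 for COL18A1, with 9 positive and 16 negative values. Their median was -0.18, against 0.01 over all tested genes, and -0.06 without male replicate 5.

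The width of the intervals limits what this can show. For 12 of the 25 genes, the 95% confidence interval lay within 1 log2 unit of 0 on both sides, which was so for 53.6% of all tested genes. A change of 2-fold or more in at least 1 direction therefore lay within the interval of the other 13. Only the intervals of COL4A2 (-1.05 to 1.15) and LAMA3 (-1.62 to 2.40) held it in both directions. The median biological coefficient of variation of the 25 genes was 0.381, against 0.348 over all tested genes. No member had every library of one sex above every library of the other, a separation seen in 1.43% of all genes with males above and 1.88% with females above. ITGB3 met it once male replicate 5 was left out, as did 2.56% of all genes.

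**Figure D1:**
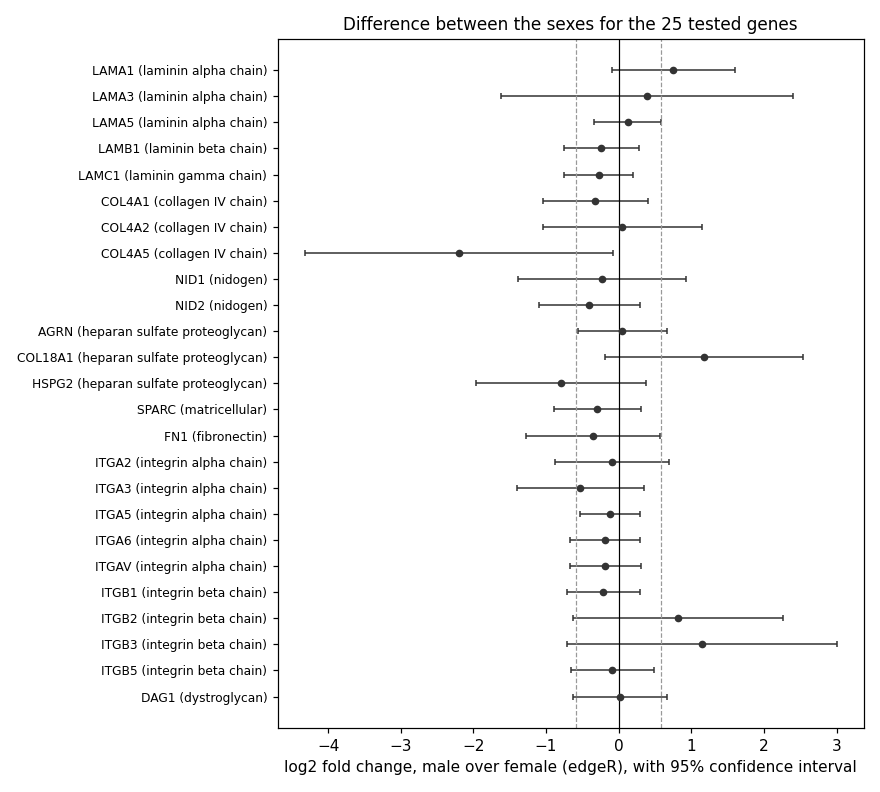
Log2 fold change, male over female, of the 25 tested genes, ordered by role, with the 95% confidence interval from edgeR; the dashed lines mark a fold change of 1.5 either way. The interval of COL4A5, from -4.32 to -0.08, is the one that leaves out 0, and LAMA5 and ITGA5 have short intervals around it.

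Among the laminin chains, 5 of 11 were tested, and they can supply each kind of chain a trimer needs. The alpha chains LAMA1, LAMA3 and LAMA5 had positive log2 fold changes, and the beta chain LAMB1 and the gamma chain LAMC1 negative ones, none past the test. LAMA1, the alpha chain of laminin-111, was at 2.90, 8.67 and 12.7 CPM in the lowest, median and highest female library, and at 21.2, 11.5, 19.3, 10.8 and 6.38 CPM in male replicates 1 to 5. A pair of males lay above every female, and male replicate 5 lay below the female median. The means were 8.17 ± 3.50 (SD, n = 6) and 13.8 ± 6.23 CPM (SD, n = 5), a log2 fold change of 0.75 with a standard error of 0.39 and an adjusted p of 0.443. Leaving out 1 library gave values from 0.24, without male replicate 3, to 0.99, without male replicate 5 (adjusted p 0.208).

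LAMA5, the alpha chain of laminin-511, varied least of the tested members, by 1.57-fold from the lowest to the highest library. It was at 7.79, 8.34 and 11.1 CPM in females and at 12.2, 8.75, 10.1, 8.17 and 8.41 CPM in males, and its interval ran from -0.33 to 0.58. The count ratio of LAMA1 to LAMA5 within a library, which is not corrected for length, lay between 0.261 and 1.63 in females and between 0.759 and 1.92 in males. LAMA3, the alpha chain of laminin-332 at hemidesmosomes, was at 1.78 CPM or less everywhere, and its log2 fold change of 0.39 turned to -0.49 without male replicate 5.

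LAMC1, the gamma chain shared by most laminins, was at 31.2, 41.0 and 61.6 CPM in females and at 44.5, 46.1, 51.0, 17.7 and 23.9 CPM in males. Male replicates 4 and 5 lay below every female and the other males among them, with a log2 fold change of -0.28, a standard error of 0.22 and an adjusted p of 0.639. LAMB1, the beta chain of laminin-111 and laminin-511, ran from 53.5 to 119.8 CPM in females, from 59.6 to 92.1 CPM in male replicates 1 to 4, and was at 33.0 CPM in male replicate 5.

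Collagen IV chains are encoded in head-to-head pairs, and that arrangement was visible in the annotation (assembly ARS-UCD2.0). COL4A1 and COL4A2 lie 394 bases apart on chromosome 12, COL4A3 and COL4A4 lie 247 apart on chromosome 2, and COL4A5 and COL4A6 lie 1359 apart on chromosome X. The first pair, which makes the collagen IV of nearly all basement membranes, was tested as a whole, and of the last pair only COL4A5. COL4A3, COL4A4 and COL4A6 had at most 21, 8 and 5 counts in any library.

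COL4A1 was at 22.2, 26.0 and 48.2 CPM in females and at 38.6, 28.3, 22.0, 22.4 and 6.53 CPM in males. COL4A2 was at 2.13, 4.17 and 7.40 CPM in females and at 8.01, 2.53, 5.59, 4.44 and 1.02 CPM in males. Male replicate 5 was the lowest library for both chains, and the other males overlapped the females. The log2 fold changes were -0.32 and 0.05. The count ratio of COL4A1 to COL4A2, again without correction for length, stayed between 3.94 and 11.2 in every library, with a median of 6.71 in females and 5.05 in males, and was 6.43 in male replicate 5.

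COL4A5 (chrX:57141392-57392487) had the lowest log2 fold change. It was at 0.456, 1.02 and 3.43 CPM in females and at 0.496, 0, 0.257, 0.714 and 0 CPM in males. A pair of males had no count, against none of the females, and the groups overlapped through male replicates 1 and 4. The means of 1.59 ± 1.23 (SD, n = 6) and 0.293 ± 0.313 CPM (SD, n = 5) gave a log2 fold change of -2.20 with a standard error of 0.97, an unadjusted p of 0.0429 and an adjusted p of 0.359 by edgeR. Leaving out 1 male library gave values from -3.25, without replicate 4, to -1.87, without replicate 2. These levels are near the limit of counting, since 3 counts equal 0.145 to 0.412 CPM. The gene no longer passed the filter on low counts when any 1 female library was left out. The 476 tested X-linked genes had a median of -0.85, so a lower value in males was usual for this chromosome.

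Nidogens link laminin to collagen IV, and both were tested. NID2 was at 23.3, 29.4 and 63.6 CPM in females and at 39.9, 14.6, 25.5, 21.7 and 25.4 CPM in males, with a log2 fold change of -0.40, a standard error of 0.32 and an adjusted p of 0.650. NID1 was among the most variable members, at 22.2, 48.3 and 179.9 CPM in females and at 100.3, 185, 63.2, 39.5 and 7.88 CPM in males. Its levels spanned 23.4-fold, and the spread within each sex was far larger than the difference between them. Its log2 fold change of -0.23 was 0.11 without the library number in the model.

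Of the 3 heparan sulfate proteoglycans, COL18A1, the source of endostatin, had the highest log2 fold change of all members. It was at 0.363, 1.30 and 2.38 CPM in females and at 1.90, 5.70, 1.54, 2.06 and 4.84 CPM in males. Male replicates 2 and 5 lay above every female and the other 3 males inside the female range. The log2 fold change was 1.18 with a standard error of 0.63 and an adjusted p of 0.459. HSPG2, which encodes perlecan, was at 0.650, 2.33 and 3.57 CPM in females and at 1.98, 0.527, 1.80, 0.634 and 1.64 CPM in males. A pair of males lay below every female, and the log2 fold change was -0.79 with a standard error of 0.54 and an adjusted p of 0.572. AGRN, which encodes agrin, ran from 7.37 to 26.3 CPM with no separation and a log2 fold change of 0.05. Other genes overlap COL18A1, HSPG2, AGRN, LAMA1 and NID2 in the annotation, and the library kit does not mark strand, so reads from the overlapping parts cannot be told apart. Noncoding RNAs or pseudogenes also overlap the tested members DAG1, FN1, LAMB1, ITGA5, ITGA6, ITGAV and COL4A5.

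SPARC, a protein that binds collagen IV and acts during matrix assembly, was at 163, 243 and 338 CPM in females and at 248, 199, 272, 207 and 75.2 CPM in males. Male replicate 5 was the one library below the female range, and the log2 fold change was -0.29 with a standard error of 0.28 and an adjusted p of 0.705. FN1 encodes fibronectin, the main ligand of the integrin of the ITGA5 and ITGB1 chains. It was at 827, 1575 and 2786 CPM in females and at 1918, 1564, 1732, 1024 and 156 CPM in males. Male replicates 1 to 4 lay inside the female range and male replicate 5 far below it. The log2 fold change of -0.36 became -0.03 without that library, with an adjusted p of 0.774 with it and 0.965 without.

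**Figure D2:**
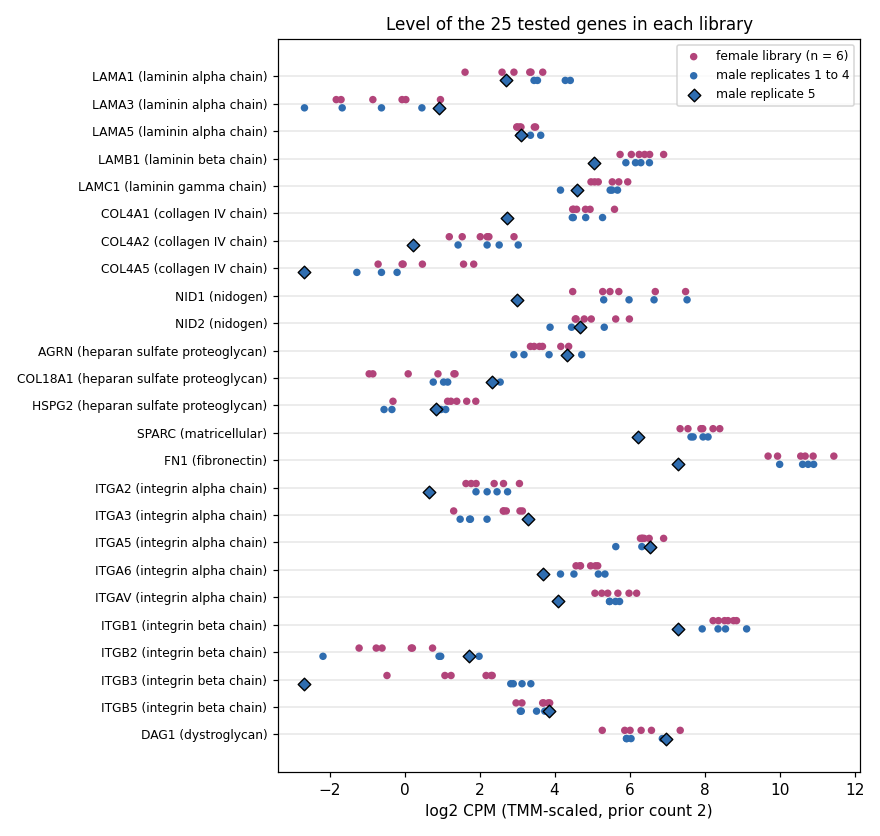
Level of the 25 tested genes in each library on a log2 CPM scale (TMM-scaled, prior count of 2), ordered by role, with female libraries in the upper row of points for each gene and male libraries in the lower row. The diamond, male replicate 5, is the lowest point for 11 genes and shares the lowest value with male replicate 2 for COL4A5, and the sexes overlap for every gene; levels of different genes are not corrected for length.

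Integrin chains made up 20 of the 45 members, and 9 were tested. The alpha chains with enough counts were ITGA2, ITGA3, ITGA5, ITGA6 and ITGAV, which with ITGB1 cover receptors for collagen, laminin and fibronectin. All 5 had negative log2 fold changes, from -0.53 to -0.09, none past the test, and that of ITGA2 was 0.10 without male replicate 5 and 0.04 without female replicate 2. ITGA3, a laminin receptor chain, was at 2.32, 6.24 and 8.67 CPM in females and at 3.22, 2.64, 4.43, 3.17 and 9.58 CPM in males. Male replicates 1 to 4 lay below all females but 1, and male replicate 5 above all of them. The log2 fold change was -0.53 with a standard error of 0.40 and an adjusted p of 0.629, and from -0.85, without male replicate 5 (adjusted p 0.282), to -0.37 when 1 library was left out.

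ITGA5, the fibronectin receptor chain, was at 78.1, 82.2 and 119.8 CPM in females and at 93.8, 80.1, 94.5, 49.4 and 93.2 CPM in males, with an interval from -0.53 to 0.29. ITGAV, which pairs with ITGB1, ITGB3 and ITGB5 to bind vitronectin and fibronectin, was at 33.6, 47.0 and 72.7 CPM in females and at 43.9, 49.2, 53.0, 44.2 and 16.8 CPM in males. ITGA6, a laminin receptor chain, was at 23.6, 28.3 and 35.3 CPM in females and at 22.7, 35.8, 40.4, 17.7 and 12.8 CPM in males. For ITGAV and ITGA6, male replicate 5 was the lowest library. ITGB1, the partner of most of these chains, ran from 299 to 461 CPM in females and was at 328, 376, 556, 244 and 155 CPM in males, with a log2 fold change of -0.21 that was -0.00 without male replicate 5.

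ITGB3, the beta chain of the vitronectin receptor and of the platelet integrin, did not overlap between the sexes outside male replicate 5. It was at 0.565, 3.28 and 4.89 CPM in females and at 10.2, 6.96, 8.61, 7.30 and 0 CPM in males. Male replicates 1 to 4 lay above every female library, and male replicate 5 had no count at all in the deepest library of the set. The means were 3.13 ± 1.80 (SD, n = 6) and 6.60 ± 3.90 CPM (SD, n = 5). The log2 fold change was 1.15 with a standard error of 0.85 and an adjusted p of 0.619 by edgeR. Without male replicate 5 it was 1.55 with an adjusted p of 0.138, and leaving out any 1 library gave values from 0.66 to 1.86, none past the test.

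ITGB2, the beta chain of leukocyte integrins, was at 0.275, 0.739 and 1.52 CPM in females and at 1.73, 1.79, 0.0642, 3.81 and 3.14 CPM in males. Male replicate 3 lay below every female and the other 4 males above every female, with a log2 fold change of 0.82, a standard error of 0.66 and an adjusted p of 0.655. ITGB5 varied by 1.88-fold over the libraries and had a log2 fold change of -0.09. DAG1, which encodes dystroglycan, was at 38.4, 71.7 and 163 CPM in females and at 60.5, 117, 65.5, 60.2 and 125 CPM in males, with a log2 fold change of 0.02 and an interval from -0.62 to 0.67.

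The 20 members without enough counts included chains that other epithelia use. LAMC3 had 0 counts in all 11 libraries, 3 of the 20 had at most 3 counts in every library, and 18 had at most 25. LAMB2 and ITGA1 did not exceed 7 and 2 counts in any library. The other 2 stood out in male replicate 5. ITGB8, a beta chain that activates TGF-beta, had 197 counts there, 33 in female replicate 3, 11 in male replicate 4, 7 in female replicate 1 and 0 elsewhere. LAMB3, the beta chain of laminin-332, had 96 counts there and at most 9 in any other library. ITGB4, the integrin chain of hemidesmosomes, had at most 14 counts in any library.

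The second question was how the members varied between libraries. Male replicate 5 was the lowest of the 11 libraries for 11 of the 25 tested members, against 26.8% of all tested genes. It was the highest for 1, ITGA3, against 24.9% of all genes. The 11 were COL4A1, COL4A2, NID1, SPARC, FN1, LAMB1, ITGA2, ITGA6, ITGAV, ITGB1 and ITGB3, and for COL4A5 it shared a level of 0 with male replicate 2.

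Each member was then set against a hypoblast score, the mean log2 CPM of GATA4, GATA6, PDGFRA and HNF4A, since hypoblast cells are known to lay down basement membrane. SOX17 and FOXA2 had too few counts to enter it. GATA4, at 0.304 to 2.74 CPM, was itself near the limit of counting. By a permutation test with 100000 resamples, 4 of 25 members had an unadjusted p under 0.05, against 10.8% of all tested genes, and 0 passed after adjustment over all tested genes, against 0% of all genes. Rank correlation also gave 4, COL4A1, FN1, ITGA3 and ITGAV, against 8.08% of all genes, of which 2, ITGA3 and ITGAV, were among those by Pearson r. ITGA3 had the lowest p, with a Pearson r of -0.82 (n = 11, permutation p = 0.00317, adjusted p = 0.328) and a Spearman rho of -0.76 (permutation p = 0.00861, adjusted p = 0.546). HSPG2 was also negative with an r of -0.65, and ITGA2 and ITGAV were positive with an r of 0.61 and 0.59. The other matrix genes with an r near these were COL4A1 with 0.55, FN1 with 0.55, LAMA5 with 0.49 and NID1 with 0.49, while LAMB1 and LAMC1 had 0.30 and 0.14. The remaining matrix genes ran from -0.20 for NID2 to 0.41 for COL4A2, and of these LAMA1 was also negative, at -0.09. With sex and library number removed, the 4 were DAG1, HSPG2, ITGA3 and ITGA5, all negative, against 15% of all genes. The p-values of that setting do not allow for the terms removed. They are therefore too small, for members and for all genes alike.

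Because 4 trophectoderm markers were highest in male replicate 5, a trophectoderm score was added after these values had been seen, as the mean log2 CPM of 10 markers that include KRT8, KRT18, CDX2, GATA2 and GATA3. It ran from 7.31 in female replicate 3 to 8.75 in female replicate 1 and 8.82 in male replicate 5. Of the 25 members, 12 had an unadjusted permutation p under 0.05, which is 48.0%, against 26.3% of all tested genes. After adjustment over all tested genes, 8 passed at 0.1, which is 32.0%, against 14.5%. By rank correlation 6 had an unadjusted p under 0.05, against 17.3% of all genes, and 2, FN1 and ITGA2, passed after adjustment, against 1.03%. Of the 12, the negative ones were COL4A1, COL4A2, FN1, LAMB1, ITGA2, ITGA6, ITGAV, ITGB1 and ITGB3, and the positive ones DAG1, ITGA3 and ITGB5. With sex and library number removed, 10 of the 25 had an unadjusted p under 0.05, against 32.8% of all genes, without ITGA6 and ITGB1. After adjustment 9 passed in that setting, against 24.3%. As with the hypoblast score, the p-values there do not allow for the terms removed and are too small. These counts therefore do not show that the relation holds after the removal.

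**Figure D3:**
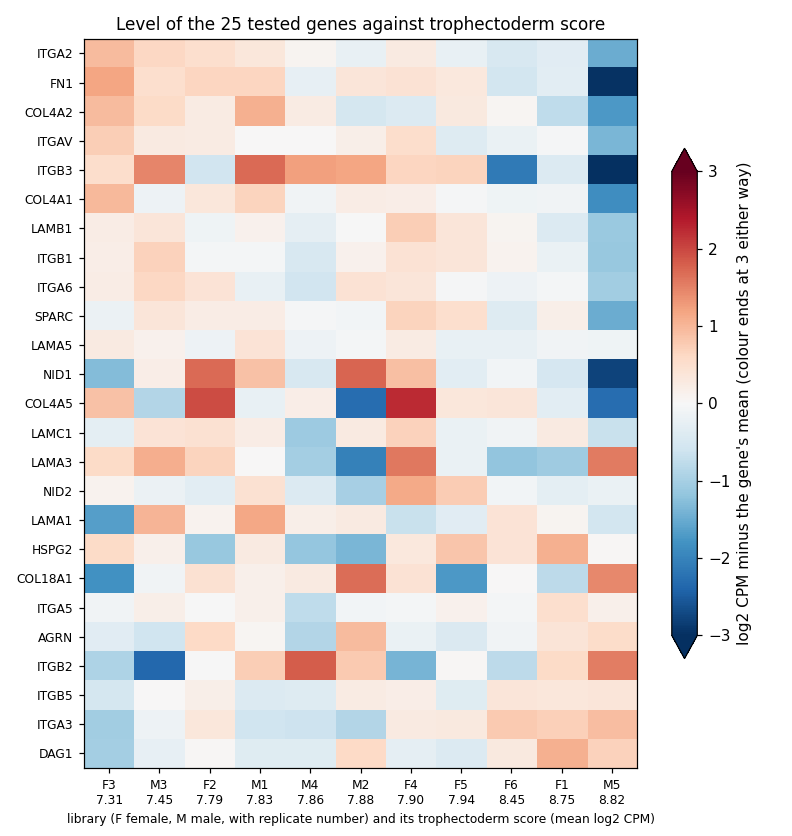
Level of the 25 tested genes (rows) in the 11 libraries (columns, from the lowest to the highest trophectoderm score), as log2 CPM minus the gene's own mean; rows run from the most negative to the most positive correlation with the score. ITGA2 and FN1 at the top go from red to blue, DAG1 and ITGA3 at the bottom from blue to red, and the column of male replicate 5 holds several of the strongest colours.

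ITGA2, a collagen receptor chain, had the closest relation, with an r of -0.89 (n = 11, permutation p = 1e-05, the smallest the resamples can give, adjusted p = 0.00853) and a rho of -0.95 (permutation p = 9e-05, adjusted p = 0.0557). It was at 8.20 CPM in female replicate 3 and at 1.40 CPM in male replicate 5. Without the 2 libraries farthest from the median score, female replicate 1 and male replicate 5, r was -0.89, and within the 6 females it was -0.89. MOCS2 overlaps ITGA2 in the annotation, so some of its reads may belong to that gene.

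FN1 had an r of -0.81 (permutation p = 0.00022, adjusted p = 0.0180) and a rho of -0.89 (permutation p = 0.00057, adjusted p = 0.0874). Without the 2 farthest libraries its r was -0.83, and within the females -0.95, so the size of r did not rest on those libraries. DAG1 had an r of 0.83 (permutation p = 0.00129, adjusted p = 0.0336) and a rho of 0.60 (permutation p = 0.0558, adjusted p = 0.297), with 0.64 without the 2 farthest libraries and 0.94 within the females. ITGA3 had an r of 0.78 (permutation p = 0.00492, adjusted p = 0.0600) and a rho of 0.74 (permutation p = 0.0133, adjusted p = 0.192), with 0.64 without the 2 farthest libraries and 0.86 within the females.

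**Figure D4:**
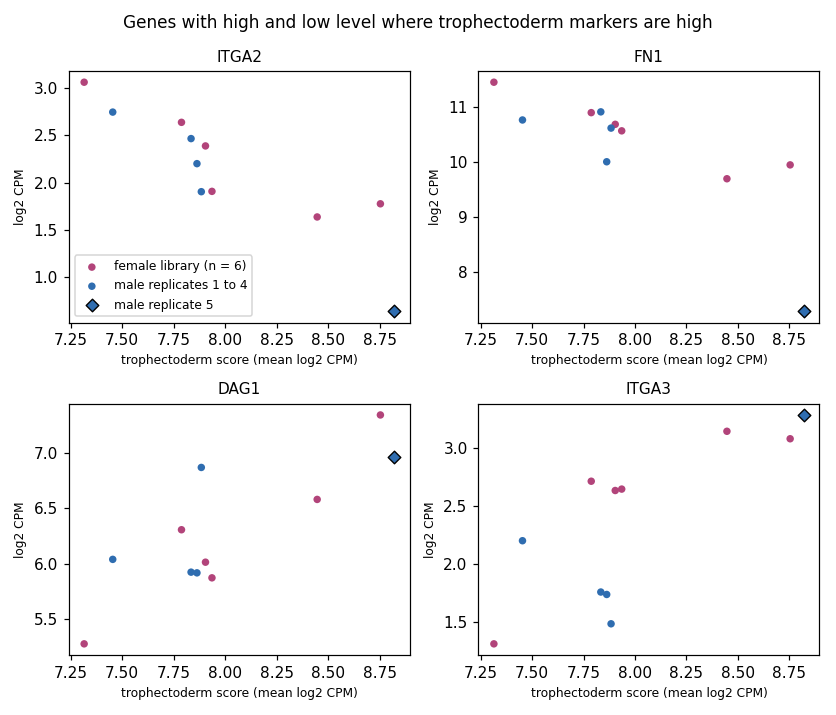
Log2 CPM of ITGA2, FN1, DAG1 and ITGA3 (vertical axes) against the trophectoderm score of the library, the mean log2 CPM of 10 markers (horizontal axes), with 1 point per library. ITGA2 and FN1 are lower and DAG1 and ITGA3 higher in the 3 libraries with a score above 8, apart from male replicate 2 for DAG1; the diamond is male replicate 5.

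For the other members the relation was less steady. Without the 2 farthest libraries 3 members, FN1, ITGA2 and ITGAV, had an unadjusted permutation p under 0.05, against 11.4% of all genes, and without male replicate 5 there were 5, COL4A2, DAG1, FN1, ITGA2 and ITGA3, against 16%. Within the females there were 6, against 14.7%. After adjustment over all tested genes, 0 members passed without the 2 farthest libraries (lowest adjusted p 0.220, for ITGA2), 0 within the females (lowest 0.255) and 1 without male replicate 5 (ITGA2, 0.0934). The laminin chains LAMA1, LAMA5 and LAMC1 and both nidogens were not among the 12, with an r from -0.53 for LAMA5 to 0.05 for LAMA1. All values are shares of 1 library, so a large keratin share in a library enters every member's CPM there.

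The other genes of the pathway were taken from 5 lists of 118 genes, of which 84 were tested: adaptors and kinases of integrin adhesions, other laminin and collagen receptors, collagen folding and dystroglycan glycosylation, matrix proteases and their inhibitors, and other matrix proteins. None was called higher in males and 2 were called higher in females, both of them tissue inhibitors of metalloproteinases. That is 2.38% of the 84, against 1.5% of all genes, and 14 had an unadjusted p under 0.05, which is 16.7% against 13.2%. Their median log2 fold change was -0.14, and 33 of the 84 had positive values.

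TIMP1 (chrX:85939719-85943558), a secreted inhibitor of the metalloproteinases that cut matrix, was at 457, 535 and 585 CPM in females and at 315, 233, 297, 322 and 170.3 CPM in males. Every female library lay above every male library. The means were 525 ± 59.2 (SD, n = 6) and 267 ± 64.5 CPM (SD, n = 5), a log2 fold change of -0.97 with a standard error of 0.18 and an adjusted p of 0.0244 by edgeR. It is X-linked, and the median of tested X-linked genes was -0.85. It lies within SYN1, which had at most 111 counts in any library against 2212 or more for TIMP1. TIMP2 (chr19:53460835-53512593), which also takes part in activating MMP2, was at 62.5, 96.1 and 126 CPM in females and at 69.6, 26.6, 39.8, 38.7 and 44.8 CPM in males. Male replicate 1 lay above 1 female and the other males below every female. The log2 fold change was -1.15 with a standard error of 0.25 and an adjusted p of 0.0566 by edgeR. TIMP1 passed in each of the 11 fits that left out 1 library, and TIMP2 in 4 of them; it was lost when female replicate 1, 4, 5, 6 or male replicate 2, 3, 4 was left out, with an adjusted p of up to 0.145. Neither passed when a fold change over 1.5 was itself tested.

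**Figure D5:**
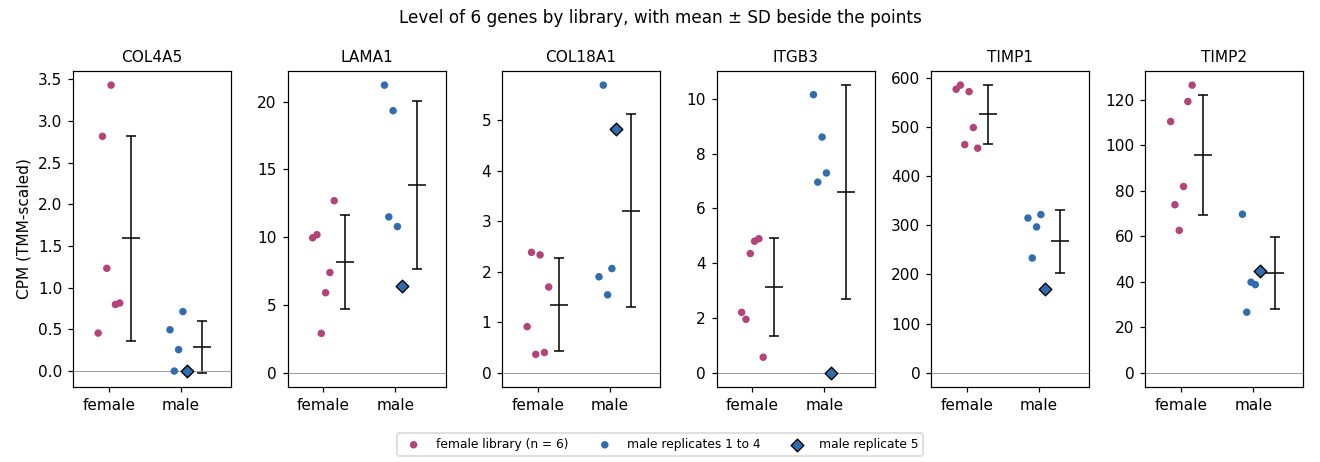
CPM of COL4A5, LAMA1, COL18A1, ITGB3, TIMP1 and TIMP2 in each female and male library, with the mean ± SD of each sex beside the points and a separate vertical axis for each gene. The sexes do not overlap for TIMP1, they overlap through 1 male for TIMP2, and for ITGB3 male replicate 5 lies at 0 while the other males lie above all females.

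Among the adaptors and kinases, 0 of 23 passed, and the 2 lowest p belonged to LIMS2, an adaptor of the integrin-linked kinase complex, with a log2 fold change of 0.93 (adjusted p = 0.313), and FERMT1, which encodes kindlin-1, with -0.79 (adjusted p = 0.431). Among the other receptors, 0 of 16 passed. DDR1, a collagen receptor kinase, had -0.61 (adjusted p = 0.223), with 5 of 6 females above every male, and DMD, the X-linked dystrophin gene, had -1.28 (adjusted p = 0.243). Of the collagen folding and glycosylation genes, 0 of 20 passed. P4HA1, a collagen prolyl hydroxylase, was at 79.0, 106 and 134 CPM in females and at 66.2, 93.8, 53.6, 72.5 and 26.1 CPM in males, with -0.83 (adjusted p = 0.166). POMT2, which starts the sugar chains of dystroglycan, had 0.91 (adjusted p = 0.205). DESeq2 with the library number called both, at an adjusted p of 0.0623 and 0.0730, and edgeR called P4HA1 without male replicate 5 (0.0698) and with the loosest filter (0.00677). Of 14 tested other matrix proteins, 0 passed, with COL1A1 at -1.87 (adjusted p = 0.187) and FBN1 at -0.94 (adjusted p = 0.269). DESeq2 called COL1A1 with the library number (0.0655) and without it (0.0346), POMT2 also without it (0.0581), and DDR1 without it alone (0.0963). Among these other fits, a share of all genes called is at hand only for DESeq2 without the library number, at 3.28% higher in females. The remaining calls cannot be set against such a share.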

How the data were processed

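RNA-seq was carried out on 6 female and 5 male pools of 2 cut expanded blastocysts. Libraries were built with the SMART-Seq HT PLUS kit, whose amplified full-length cDNA does not keep strand. Per the labels, reads were trimmed with fastp 0.20.0, aligned with STAR 2.7.10b and counted with featureCounts, and the authors deposited raw counts per gene symbol. The strand setting of the counting is not given in the sources used here. A sample of 4-cell embryos for long reads was not used here.

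The test between the sexes was run in edgeR 4.0.16 (R 4.3.3): filterByExpr by sex, TMM, glmQLFit and glmQLFTest with the first number of the library name as a covariate, and Benjamini-Hochberg adjustment over 12802 genes. Calls needed an adjusted p under 0.1 and a fold change over 1.5. All adjusted p-values between the sexes come from edgeR unless DESeq2 1.42.0 is named. The first number of the library name was used in place of the collection week, but no label says that it is the week. Whether it pairs the sexes was checked with deviations from the sex means. They correlated at 0.0735 on average (from -0.111 to 0.351) for 10 female-male pairs with the same number. For the other 20 pairs the average was -0.0353 (from -0.297 to 0.245), so the ranges overlapped. Log2 CPM used a prior count of 2. Correlations used two-sided permutation tests, all orderings below 10 libraries, adjusted over all tested genes rather than over the members alone as had been planned, 25 relations for each of 2 scores. Scripts were tested on simulated data. Of the 32637 symbols, 30271 matched RefSeq (ARS-UCD2.0), which gave positions; no exon lengths were at hand.

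Precision rests on counted reads per library of 6664112 to 21392764. Confidence intervals come from the edgeR fit and include the spread between pools. The limit of 3 counts covers counting error only, since reads carry no molecular identifiers. No 2 libraries of a sex were copies of each other. Members, lists and tests were chosen with earlier results of these data known. Full values are given for members called, for the 10 with the lowest p, for the tested X-linked member COL4A5 and for members without overlap. COL4A6, X-linked and not tested, is given by its highest count alone. The other values shown for FN1, ITGA2, DAG1, LAMA5, ITGB8, LAMB3 and other members, and the trophectoderm score, were chosen after values had been seen. The values of 1 member are not reported here. Pathway genes named are those called and the 2 with the lowest p of each list.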

Additional observations from a re-analysis of the deposited data

Results flagged for a closer look

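In 4 of the 50 groups of libraries examined (25 genes in each sex), 1 library lay far from the others of its sex by Dixon's gap criterion, which by chance marks about 1 in 20 groups. COL4A1 was at 48.2 CPM in female replicate 3, with the other females at 22.2 to 30.7 CPM. ITGA5 was at 119.8 CPM in female replicate 1, with the other females at 78.1 to 91.7 CPM. ITGA3 was at 9.58 CPM in male replicate 5, with the other males at 2.64 to 4.43 CPM. ITGAV was at 16.8 CPM in male replicate 5, with the other males at 43.9 to 53.0 CPM. Female replicate 3 had the lowest trophectoderm score of the 11 libraries and male replicate 5 the highest.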

How the results depend on the processing

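No member was called in either direction without the replicate block (the library number), with DESeq2 and the block, with other size factors, other filters, a stricter threshold, or with any 1 library left out. Of the 11 fits that left out 1 library, COL4A5 was tested in 5 and LAMA3 in 8. Neither was tested under the strictest filter on counts. DESeq2 without the block called 1, COL4A5, higher in females (log2 fold change -2.43, adjusted p 0.0853). The members separated between the sexes numbered 0 to 1 when 1 library was left out: COL4A5 (higher in females) without female replicate 1, against 2.57% of all genes, HSPG2 (females) without female replicate 2 (2.17%), ITGB2 (males) without male replicate 3 (2.62%) and ITGB3 (males) without male replicate 5 (2.56%). The 4 members with an unadjusted p under 0.05 against the hypoblast score became 2 with a prior count of 0.5, against 10% of all genes. The 12 against the trophectoderm score became 3 without the 2 farthest libraries (11.4%), 6 in females alone (14.7%) and 5 without male replicate 5 (16%). With sex and library number removed they became 10 (32.8%), by p-values that are too small because they do not allow for the terms removed.

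Leaving out 1 library turned the sign of small log2 fold changes in AGRN (-0.23 to 0.18), COL4A2 (-0.33 to 0.35), DAG1 (-0.18 to 0.26), ITGA2 (-0.35 to 0.10), ITGB5 (-0.21 to 0.031), LAMA3 (-0.49 to 0.79) and NID1 (-0.52 to 0.10). NID1 was also positive without the block, at 0.11 with edgeR and 0.12 with DESeq2, and DAG1 was -0.00225 with factors from autosomal genes. The cause was not tested. The order of members by level per length and the shares of chains were not run, since no transcript lengths were at hand. With 5 and 6 pools, a 2-fold difference in at least 1 direction lay within the interval of 13 of the 25 members.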
